A study of Mus musculus with 6 samples.

Results

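The transcripts described here belong to 10 genes of the cellular oxygen response: the HIF alpha subunits Hif1a and Epas1, the prolyl hydroxylases Egln1 and Egln3, and 6 genes known to be induced by HIF, namely Pdk1, Ankrd37, Ndrg1, Ero1a, Hmox1 and Bhlhe40. Every probe set (a group of array probes for 1 transcript) whose annotated symbol was one of these was taken, which gave 10 of the 18193 genes named in the platform annotation and 25 of the 45101 probe sets in the table. Expression was measured on Affymetrix arrays, 1 per heart, in RNA from the apex of hearts of male mice aged 6 to 7 weeks. The 3 hearts of the first group (αMHC-Cre) were Fog2flox/delta with an alpha MHC Cre transgene, whose promoter drives Cre recombinase in cardiomyocytes, where it can delete the floxed segment of Fog2. Fog2, official symbol Zfpm2, encodes a cofactor of GATA transcription factors. The 3 hearts of the second group were Fog2flox/delta with no Cre. Both groups therefore carried 1 deleted allele throughout the body, the hearts without Cre were not wild type, and with no group that had Cre alone, the Cre protein and the loss of Fog2 cannot be told apart as sources of a difference. The comparison asks whether transcripts of the hypoxic response differed between the groups.

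HIF is a transcription factor made of an oxygen-regulated alpha subunit and a stable partner, Arnt. In normal oxygen, prolyl hydroxylases of the Egln family modify the alpha subunit, the Vhl complex marks it for destruction, and target genes stay low. When oxygen falls the alpha subunit escapes and binds short sites with the core letters ACGTG or GCGTG. Most of this control acts on the protein, so the level of Hif1a RNA does not measure HIF activity, and the target genes are the usual readout in RNA.

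Of the 10 genes, 1 rose with Cre and none fell, while 6.24% of the 13062 genes tested on the arrays changed (4.2% higher), so the count is near the background. Ero1a, the endoplasmic reticulum oxidase that drives disulphide bond formation, was 2.13-fold higher by its brightest probe set, and its other 2 also rose, 2.08-fold and 1.95-fold. Hif1a was 1.44-fold higher and Egln1 lower, both without overlap between the groups, but neither passed the test. Egln3, Pdk1, Ankrd37, Ndrg1, Bhlhe40 and Hmox1 differed by -0.09, 0.07, 0.18, 0.21, 0.27 and 0.28 on the log2 scale and did not pass.

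Promoter windows are shown for Ero1a, the member that rose, and for Ankrd37, a member that did not pass although its window held the most matches of the members. Ankrd37 was picked for this after its values were seen. They are from RefSeq (build GRCm38.p6), each from 250 bases before to 50 bases after an annotated start, printed 5′ to 3′ on the strand of the gene, at chr14:45318523-45318822 for Ero1a and chr8:45999801-46000100 for Ankrd37, both on the minus strand. Capitals mark ACGTG and GCGTG, read on either strand.
Ero1a: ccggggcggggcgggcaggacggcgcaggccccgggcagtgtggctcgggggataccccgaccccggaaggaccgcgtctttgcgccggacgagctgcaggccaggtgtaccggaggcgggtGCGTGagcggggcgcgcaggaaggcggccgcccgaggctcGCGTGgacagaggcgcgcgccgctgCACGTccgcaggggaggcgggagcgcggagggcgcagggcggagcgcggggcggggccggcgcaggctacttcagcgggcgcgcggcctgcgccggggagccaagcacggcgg
Ankrd37: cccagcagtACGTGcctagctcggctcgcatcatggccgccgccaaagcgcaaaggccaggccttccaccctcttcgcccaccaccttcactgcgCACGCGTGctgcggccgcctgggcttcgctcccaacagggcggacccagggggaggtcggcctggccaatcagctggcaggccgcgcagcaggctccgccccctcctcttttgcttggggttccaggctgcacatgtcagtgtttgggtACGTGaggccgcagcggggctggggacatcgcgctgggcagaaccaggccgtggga
The Ero1a window held 1 ACGTG and 2 GCGTG, and the Ankrd37 window 2 of each, of which 1 GCGTG on each strand overlapped. Windows were listed for 6 of the 10 members (Epas1, Ndrg1, Hmox1 and Bhlhe40 have none in the table). Hif1a had 3 matches, a pair of them reading 1 CACGTG on opposite strands, Egln1 had 2 and Egln3 had 1. Of the 2 listed starts of Pdk1, 1 had 2 matches and the other 0. One of these letter strings on either strand stood in 43.8% of the 32851 windows in the table, so a match is common, and the GC content of the Ero1a window was 80.3%. A match is a description of the letters and not a measured site.

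Values are log2 signals of a probe set, and a difference is the mean with Cre minus the mean without. A gene is represented by its brightest probe set, and changes were called with limma at an adjusted p (Benjamini-Hochberg over 27022 tested probe sets) under 0.05. By this rule 4.2% of the tested genes changed upward and 2.04% downward, and of the tested probe sets 5.23%, with 3.43% higher and 1.79% lower. All 10 members were tested, through 23 of their 25 probe sets, since 1 probe set of Hif1a and 1 of Pdk1 were among the dimmest 40% left out. Of the 23 probe sets, 3 were called, all higher and all of Ero1a. The median difference was 0.20 over the 10 genes, and -0.01 over all genes tested.

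Array medians lay between 5.72 and 5.81, and within-group pairs of arrays correlated at 0.980 to 0.987 across probe sets, against 0.964 to 0.973 between groups. The signal at the 3′ end minus that at the 5′ end, a sign of RNA quality, was 0.27 ± 0.019 for the actin control probe sets with Cre and 0.35 ± 0.056 without (SD, n = 3 each), and -0.06 ± 0.015 and -0.11 ± 0.031 for the Gapdh ones. Both separated the groups at the smallest p that 3 against 3 arrays allow (two-sided exact permutation p = 0.1, adjusted 0.2 over 4 measures), and their part in the differences was not tested. The array median and the number of values below 0 gave exact p of 0.9 and 0.7. The cardiomyocyte markers Myh6, Actc1, Tnnt2, Tnni3, Myl2, Ryr2, Pln and Atp2a2 had group means of 12.34 to 13.88, and none of the 8 passed. Array maxima were 13.97 to 14.00, so most of these markers lay near the top of the signal range. They therefore do not show that cardiomyocyte content was equal. The targeted gene Zfpm2 has 2 probe sets that differed in opposite directions, by -0.88 ± 0.13 (SE, adjusted p 0.0052) and by 1.68 ± 0.12 (adjusted p 0.00014). The part of Zfpm2 that each one reads was not stated in the sources used, and they do not check the deletion.

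**Figure D1:**
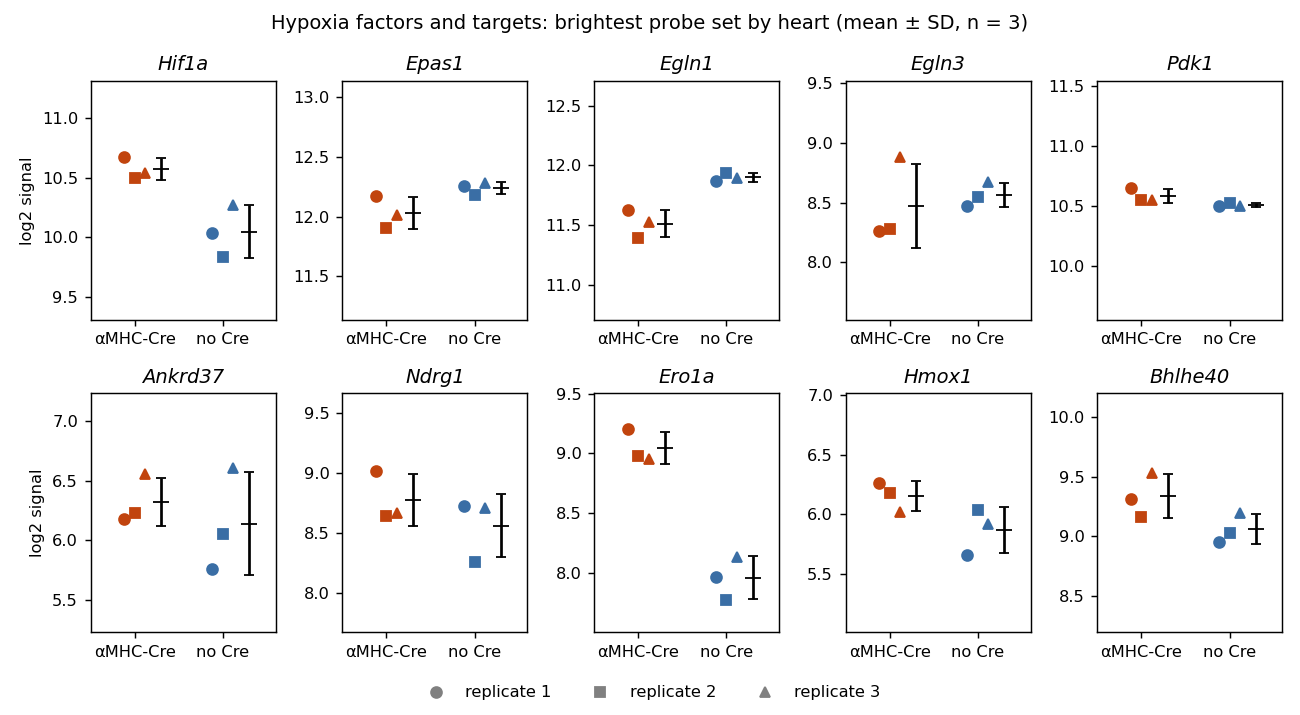
Log2 signal of the brightest probe set of each gene in each heart, αMHC-Cre left of no Cre, with the mean and SD of 3 hearts beside the points. Each panel spans 2 log2 units around its own mid level. Ero1a lies between 8.96 and 9.20 with Cre, against 7.77 to 8.13 without, while Egln3, Ankrd37, Ndrg1, Hmox1 and Bhlhe40 overlap between the groups.

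Hif1a encodes the alpha subunit present in nearly all cells. Its brightest probe set read 10.68, 10.50 and 10.54 in hearts with Cre, against 10.04, 9.84 and 10.27 in hearts without Cre. All hearts with Cre were above all hearts without it. The difference was 0.52 ± 0.14 (SE), with a 95% interval of 0.21 to 0.84, and it did not pass (limma adjusted p 0.069). The other tested probe sets differed by 0.51 (adjusted p 0.12) and 0.45 (adjusted p 0.11), also without overlap. The 3 probe sets read the same hearts and are not independent. The call of Hif1a turned with the processing: it passed in 5 of 15 alternatives, with adjusted p from 0.014 (trend and robust variance) to 0.23 (no filter on dim probe sets). The highest heart of the group without Cre was no_Cre 3, and leaving it out gave a difference of 0.64 (adjusted p 0.046).

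Epas1 encodes HIF-2α, the alpha subunit best known from endothelial cells. Its brightest probe set read 12.17, 11.91 and 12.02 with Cre and 12.26, 12.18 and 12.28 without Cre. The hearts with Cre lay just below the others, and the difference of -0.21 ± 0.12 (SE) did not pass (limma adjusted p 0.42). The other probe set, with overlapping groups, differed by 0.07 (adjusted p 0.89). Endothelial markers measured on the same arrays were mostly higher in mean with Cre: of 12 tested this held for 10, only Vwf, the von Willebrand factor gene, passed (1.12 ± 0.17, adjusted p 0.0066), and the list median was 0.14. Their summed level was 12.93 to 13.01 with Cre and 12.60 to 12.90 without. In whole tissue, a change in the number of cells of a type and a change in RNA per cell cannot be told apart.

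The remaining tested HIF subunits did not pass either. Hif3a, whose products can oppose the other alpha subunits, differed by -0.07, and Arnt, the common partner, by -0.18. Arnt2 was too dim to be tested.

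Egln1 encodes the prolyl hydroxylase PHD2, the main oxygen sensor of the pathway. It read 11.62, 11.39 and 11.52 in hearts with Cre and 11.87, 11.94 and 11.89 in hearts without Cre. The groups did not overlap, and the hearts without Cre were close together. The difference was -0.39 ± 0.12 (SE), 95% interval -0.65 to -0.13, and did not pass (limma adjusted p 0.10). Its other probe set differed by -0.38 (adjusted p 0.13), also without overlap. Egln1 passed in 1 of 15 alternatives, trend and robust variance (adjusted p 0.0076).

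Egln3 encodes PHD3, a prolyl hydroxylase whose own gene is strongly induced by HIF. It read 8.26, 8.28 and 8.88 with Cre, against 8.47, 8.54 and 8.68 without Cre. One heart with Cre was above all the others, and the other two were below every heart without Cre. The difference was -0.09 ± 0.18 (SE, limma adjusted p 0.86), and its interval ran from -0.49 to 0.31, a fold of 0.713 to 1.24. Its other probe set differed by -0.07 (adjusted p 0.89). The sign of Egln3 depended on single hearts: without aMHC_Cre 1 the difference was 0.02 and without aMHC_Cre 2 it was 0.0065.

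Of 9 tested genes for oxygen sensing and HIF turnover, 1 rose and 0 fell. The one that rose was P4htm, a transmembrane prolyl hydroxylase of the endoplasmic reticulum that can act on HIF alpha subunits. It read 10.06, 9.83 and 10.04 with Cre and 8.96, 8.88 and 8.66 without Cre, so every heart with Cre was higher. P4htm differed by 1.14 ± 0.13 (SE, limma adjusted p 0.0016) by its brightest probe set, of a kind (_x_at) that can also bind other transcripts. Its other probe set differed by 1.16 (adjusted p 0.0019). By the brightest, P4htm passed in 15 of 15 alternatives, with adjusted p from 4.1e-05 to 0.042. Egln2, Hif1an, Vhl, Cul2, Eloc and Elob differed by -0.09 to 0.15 and did not pass. The co-activator genes Ep300 and Crebbp and the Cited genes gave 0 calls in either direction among 4 tested, with Cited4 at 0.29 ± 0.22 (0.025 without aMHC_Cre 3) and Cited2, which competes with HIF for p300, at -0.06 ± 0.17.

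Ero1a was the target that rose. Its brightest probe set read 9.20, 8.98 and 8.96 in hearts with Cre, against 7.97, 7.77 and 8.13 in hearts without Cre. The next read 8.29, 8.02 and 8.05 with Cre and 7.15, 6.92 and 7.12 without. The third read 8.17, 7.98 and 7.89 with Cre and 6.98, 7.06 and 7.11 without. In all 3, each heart with Cre was above each heart without Cre. The differences were 1.09 ± 0.14 (SE), 1.05 ± 0.13 and 0.96 ± 0.12, with limma adjusted p 0.0025, 0.0022 and 0.0027. Of all genes tested, 1.8% were called and at least 2-fold higher. Leaving out any single heart kept the difference of the brightest probe set between 1.00 and 1.18 and its adjusted p at or below 0.018. Without a filter on dim probe sets, where 45037 were tested, its adjusted p was 0.053, and the other 2 were at 0.047 each.

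**Figure D2:**
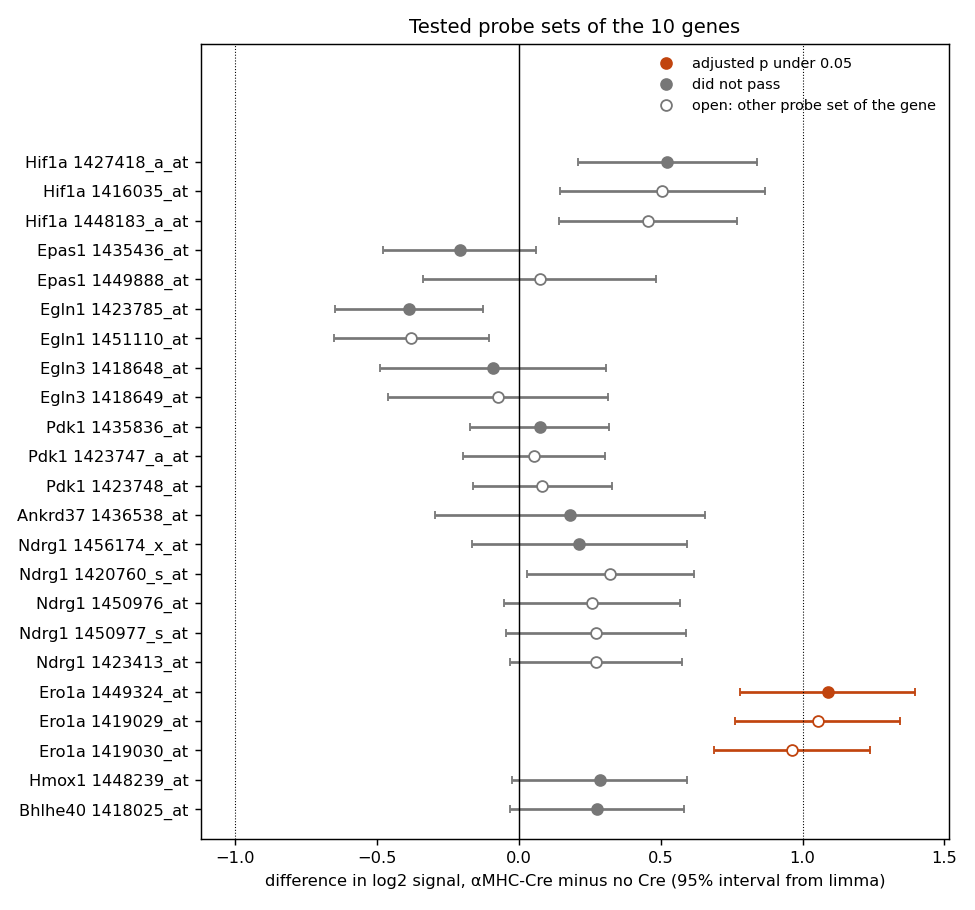
Difference in log2 signal (αMHC-Cre minus no Cre) of the 23 tested probe sets of the 10 genes, with 95% intervals from limma. Filled points stand for the brightest probe set of a gene, and dotted lines mark 2-fold differences. Only the 3 probe sets of Ero1a, at 0.96 to 1.09, passed the threshold.

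Ero1a works with protein disulphide isomerases, so the genes of oxidative protein folding were examined beside it. Of 10 tested, 2 rose and 0 fell, with a median of 0.21: Ero1a itself and Txndc5, a disulphide isomerase family member, at 0.66 ± 0.15 (SE, limma adjusted p 0.038). Txndc5 lost its call in 8 of 15 alternatives, among them leaving out any single heart but aMHC_Cre 1 (adjusted p 0.063 to 0.11). Of the 10 in this list, Ero1a included, 8 (80%) were higher in mean with Cre and 2 lower, while 47.7% of all genes were higher. The groups did not overlap for 6 of them (60%), against 26.1% of all genes. P4hb, the disulphide isomerase that Ero1a oxidises, differed by 0.32 ± 0.11 (adjusted p 0.17), without overlap between the groups. The chaperone gene Hspa5 and the stress factor gene Ddit3, both induced in the unfolded protein response, differed by 0.03 each. The paralogue Ero1b differed by -0.35 ± 0.14 (adjusted p 0.23). P4hb, Hspa5, Ddit3 and Ero1b were singled out after their values were seen.

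Fibroblast markers moved in the same direction as Ero1a on these arrays. All 8 tested were higher in mean, 4 of them passed (Col1a1 at 1.41, Mfap5 at 1.02, Lum at 0.74 and Dpt at 0.55), and the list median was 0.54. Their summed level was 14.55 to 14.64 in hearts with Cre and 14.10 to 14.26 in hearts without Cre. The part of this shift in the Ero1a difference was not tested. Dpt lost its call in 9 of 15 alternatives, among them leaving out any single heart (adjusted p 0.068 to 0.15). Mfap5 lost it without aMHC_Cre 2 (0.063). With no filter on dim probe sets Col1a1, Mfap5 and Lum missed the threshold (0.11, 0.13 and 0.080), as did the endothelial gene Vwf (0.098). Of 7 smooth muscle and pericyte markers, 10 macrophage markers and 3 erythroid markers none passed, with Acta2 at 0.80 ± 0.30, Kcnj8 at -0.16 ± 0.14, Cd14 at -0.33 ± 0.14, Cd68 at 0.22 ± 0.11, Alas2 at 0.48 ± 0.24 and Slc4a1 at 0.12 ± 0.13 (limma adjusted p 0.198 or more for each). Leaving out single hearts moved these differences to between 0.49 and 1.10 for Acta2, -0.24 and -0.07 for Kcnj8, 0.22 and 0.76 for Alas2 and 0.0089 and 0.19 for Slc4a1.

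Pdk1 encodes pyruvate dehydrogenase kinase 1, which inhibits pyruvate dehydrogenase in the mitochondrial matrix and so limits the conversion of pyruvate to acetyl-CoA, and is a standard HIF target. It read 10.65, 10.55 and 10.55 with Cre, against 10.50, 10.53 and 10.50 without Cre. The groups did not overlap, but by a narrow margin. The difference was 0.07 ± 0.11 (SE, limma adjusted p 0.80), and its interval allowed a fold of 0.889 to 1.24. The 2 other tested probe sets differed by 0.05 and 0.08. Among 9 genes that set pyruvate dehydrogenase activity, 0 rose and 1 fell: Pdp2, a phosphatase that activates the enzyme, read 5.60, 5.72 and 5.89 with Cre and 6.65, 6.58 and 6.48 without, a difference of -0.83 ± 0.12 (adjusted p 0.0059). Pdp2 lost its call without a filter on dim probe sets (adjusted p 0.067). Of the 9 genes, 3 were higher in mean with Cre and 6 lower. The largest difference was that of the kinase gene Pdk3, named after its values were seen. Pdk3 read 6.39, 6.32 and 5.95 with Cre and 4.78, 5.02 and 5.85 without. Its groups did not overlap, and the difference of 1.00 ± 0.26 (SE) did not pass (limma adjusted p 0.059).

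Ankrd37, a small ankyrin repeat protein whose gene responds to HIF, read 6.18, 6.23 and 6.55 in hearts with Cre, against 5.76, 6.05 and 6.61 in hearts without Cre. The groups overlapped, with the highest value in a heart without Cre. It differed by 0.18 ± 0.21 (SE, limma adjusted p 0.74), and its interval of -0.29 to 0.66 was the widest of the 10 genes. Without no_Cre 1 the difference was -0.0085.

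Ndrg1, a stress-responsive gene induced by hypoxia, has 5 probe sets, all tested. The brightest, of a kind (_x_at) that can also bind other transcripts, read 9.02, 8.64 and 8.66 with Cre and 8.72, 8.25 and 8.71 without Cre. These groups overlapped, and the difference was 0.21 ± 0.17 (SE, limma adjusted p 0.59). It was 0.06 without no_Cre 2 and 0.09 without aMHC_Cre 1. The other 4 differed by 0.26 to 0.32, 3 of them without overlap between the groups, with adjusted p from 0.24 to 0.38. In the Ndrg family, 0 of 4 genes rose or fell: Ndrg4 differed by 0.87 ± 0.31 (adjusted p 0.18), or 0.43 without no_Cre 2, and Ndrg2 by -0.29 ± 0.12 (adjusted p 0.27).

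Hmox1 encodes heme oxygenase 1, which breaks down haem and answers to oxidative stress as well as to hypoxia. It read 6.26, 6.18 and 6.02 with Cre, against 5.66, 6.03 and 5.92 without Cre. One heart with Cre fell just inside the range of the others. The difference was 0.28 ± 0.14 (SE, limma adjusted p 0.33), and 0.18 without no_Cre 1. Among 11 genes of haem turnover and Nrf2 targets, 0 rose and 1 fell. Nqo1, a quinone reductase and standard Nrf2 target, read 8.61, 8.00 and 8.58 with Cre and 9.34, 9.10 and 9.74 without, a difference of -0.996 ± 0.209 (adjusted p 0.027). Nqo1 lost its call in 4 of 15 alternatives, among them without no_Cre 1, without no_Cre 3 and without aMHC_Cre 2 (adjusted p 0.063 to 0.0985).

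Bhlhe40 encodes a transcriptional repressor that answers to HIF and also belongs to the circadian clock. It read 9.31, 9.16 and 9.53 with Cre, against 8.95, 9.03 and 9.20 without Cre. The groups overlapped slightly, and the difference was 0.27 ± 0.14 (SE, limma adjusted p 0.34), or 0.18 without aMHC_Cre 3. Of 13 tested clock genes, 0 rose and 1 fell, with a median of -0.11. Per3 differed by -0.55 ± 0.12 (adjusted p 0.028), but its 4 other tested probe sets ranged from -0.25 to 0.31 without passing, and its call was lost in 8 of 15 alternatives, among them leaving out any single heart but no_Cre 2 (adjusted p 0.063 to 0.12).

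Across the 10 genes, the groups did not overlap for 5, higher with Cre in Hif1a, Pdk1 and Ero1a and lower in Epas1 and Egln1. Over all genes tested 26.1% did not overlap. At an unadjusted p under 0.05 there were 3 of 10 members (Hif1a, Egln1 and Ero1a), against 19% of all genes. For the 9 genes that did not pass, the limma 95% interval lay within a 2-fold difference in both directions, which bounds the size of a change at this number of arrays and does not show that they were equal. Within the Cre group, aMHC_Cre 1 gave the highest value for 7 of the 10 genes. Within the group without Cre, no_Cre 3 gave the highest for 6.

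The wider pathway was examined with lists of HIF targets by function. Of 47 tested targets other than the members, 4 rose and 1 fell, which is 10.6% against 6.24% of all genes, and 59.6% of them had a higher mean with Cre, against 47.7% of all genes. Their median was 0.10, against -0.01 for all genes. The groups did not overlap for 38.3% of them, against 26.1% of all genes. None of those that passed came from the lists of mitochondrial and mitophagy genes, matrix-modifying enzymes, transcription, chromatin and growth genes or pH, iron and haem genes. The matrix-modifying list had the highest median of the target lists, 0.47 over 5 tested genes. Of these, 3 were higher in mean and 2 lower, and 4 did not overlap between the groups.

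Of 10 vascular and secreted targets, 2 rose and 0 fell. By mean alone 6 were higher with Cre and 4 lower, and the list median was 0.08. Among the lower ones, Vegfa differed by -0.08 ± 0.16 (SE, limma adjusted p 0.86) and Angptl4 by -0.68 ± 0.25 (adjusted p 0.20). Vegfa and Angptl4 were named after their values were seen. Adm, the gene of the vasodilator peptide adrenomedullin, read 8.09, 7.92 and 7.53 with Cre and 6.79, 6.77 and 6.57 without Cre, a difference of 1.13 ± 0.16 (SE, limma adjusted p 0.0047). Edn1, the gene of the vasoconstrictor endothelin 1, read 6.94, 7.11 and 7.41 with Cre and 6.31, 6.65 and 6.41 without, a difference of 0.70 ± 0.15 (adjusted p 0.033). Neither gene overlapped between the groups. Adm lost its call without a filter on dim probe sets (adjusted p 0.084), and Edn1 in 6 of 15 alternatives, among them without aMHC_Cre 2, aMHC_Cre 3, no_Cre 1 or no_Cre 3 (0.088 to 0.11).

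Of 16 glucose uptake, glycolysis and glycogen targets, 2 rose and 1 fell, with a median of 0.13. Ppp1r3c, which brings protein phosphatase 1 to glycogen, read 11.85, 11.59 and 11.74 with Cre and 10.99, 10.88 and 11.06 without Cre, a difference of 0.75 ± 0.12 (SE, limma adjusted p 0.0091). The hexokinase genes went opposite ways, Hk1 at 0.52 ± 0.12 (adjusted p 0.046) and Hk2 at -0.77 ± 0.16 (adjusted p 0.028). Ppp1r3c lost its call without a filter on dim probe sets (0.080), Hk1 in 8 and Hk2 in 7 of 15 alternatives. Leaving out any single heart ended the call of Hk1 by its brightest probe set (adjusted p 0.069 to 0.16), and leaving out any but aMHC_Cre 3 that of Hk2 (0.053 to 0.12). The other tested probe set of Hk1 differed by 0.67 ± 0.14 (SE) and passed (limma adjusted p 0.026), without overlap between the groups.

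In the lists with no call, the genes that differed most were these. Tfrc, the transferrin receptor gene, read 9.47, 9.74 and 11.32 with Cre and 8.54, 7.93 and 8.92 without Cre. Its groups did not overlap, but aMHC_Cre 3 was far above the other two of its group, and the difference of 1.71 ± 0.44 (SE) did not pass (limma adjusted p 0.061). Its other tested probe set differed by 1.52 and passed (adjusted p 0.041), and Tfrc passed in 4 of 15 alternatives. Without aMHC_Cre 3 its difference was 1.14 (adjusted p 0.051). Lox, a collagen crosslinking enzyme gene, differed by 0.53 ± 0.17 (adjusted p 0.14) and Plod1, a collagen lysyl hydroxylase gene, by 0.51 ± 0.13 (adjusted p 0.066, passed in 4 of 15 alternatives). The mitophagy gene Bnip3 differed by -0.45 ± 0.18 (adjusted p 0.22), Ndufa4l2, a mitochondrial protein gene induced by HIF, by 0.34 ± 0.14 (adjusted p 0.23) and the Myc antagonist gene Mxi1 by -0.30 ± 0.14 (adjusted p 0.31). Single hearts moved some of these: Bnip3 was at -0.26 without no_Cre 2, Mxi1 at -0.18 without aMHC_Cre 3, Ndufa4l2 at 0.22 without no_Cre 1 and Lox at 0.35 without aMHC_Cre 2.

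**Figure D3:**
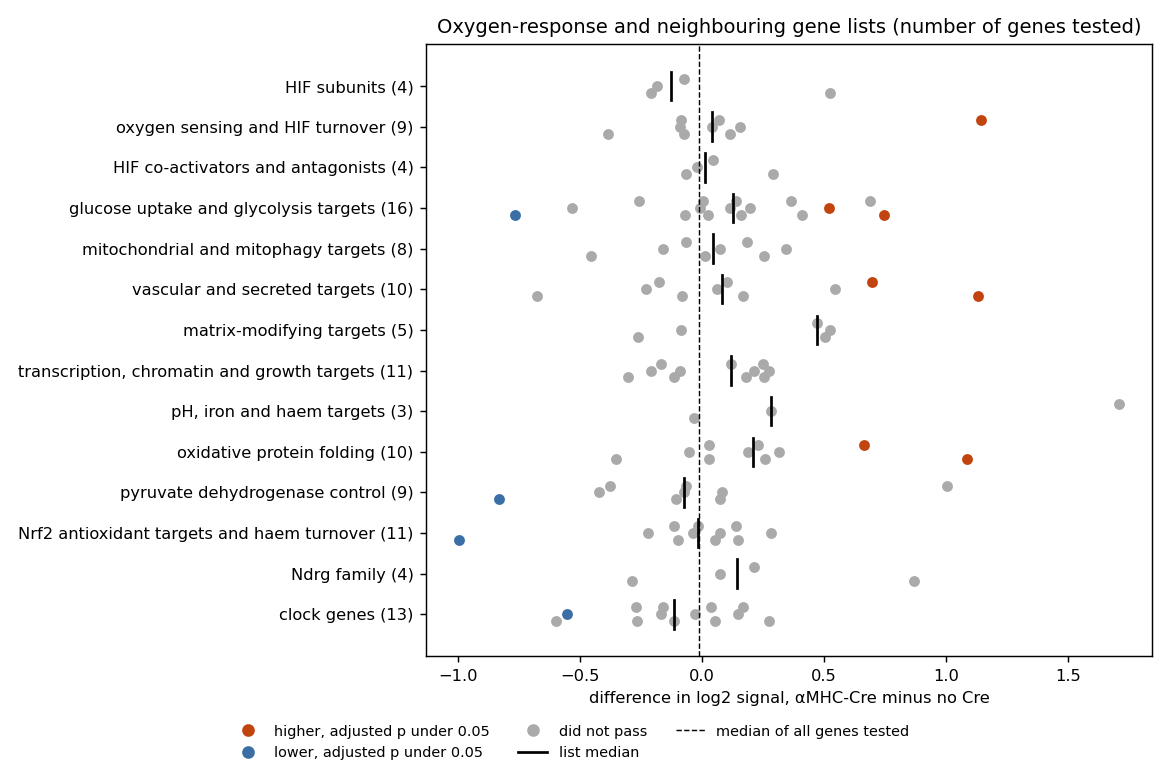
Difference in log2 signal (αMHC-Cre minus no Cre) of each tested gene, by list, with the number tested in brackets. Black bars are list medians and the dashed line is the median of all genes tested, -0.01. Cell type markers are not shown. Called genes number from 0 to 3 in each list shown, and most lists spread to both sides of the dashed line.

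Together with subunits, oxygen sensing genes and co-activators, 69 genes of the pathway were tested (9 members among them, Ero1a being counted with protein folding). Of these 69, 5 rose and 1 fell, or 8.7%, against 6.24% of all genes tested, so the share is near the background. This count was 1 without a filter on dim probe sets and 14 with trend and robust variance, and it was 3 without aMHC_Cre 2 and 3 without no_Cre 1. The count without a filter is for 45037 tested probe sets in place of 27022. The dim ones then also enter the variance that limma shares across probe sets. Over all probe sets fewer were called without a filter as well, and the total with trend and robust variance is not set beside the 14. The cause of the low count was not tested.

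**Figure D4:**
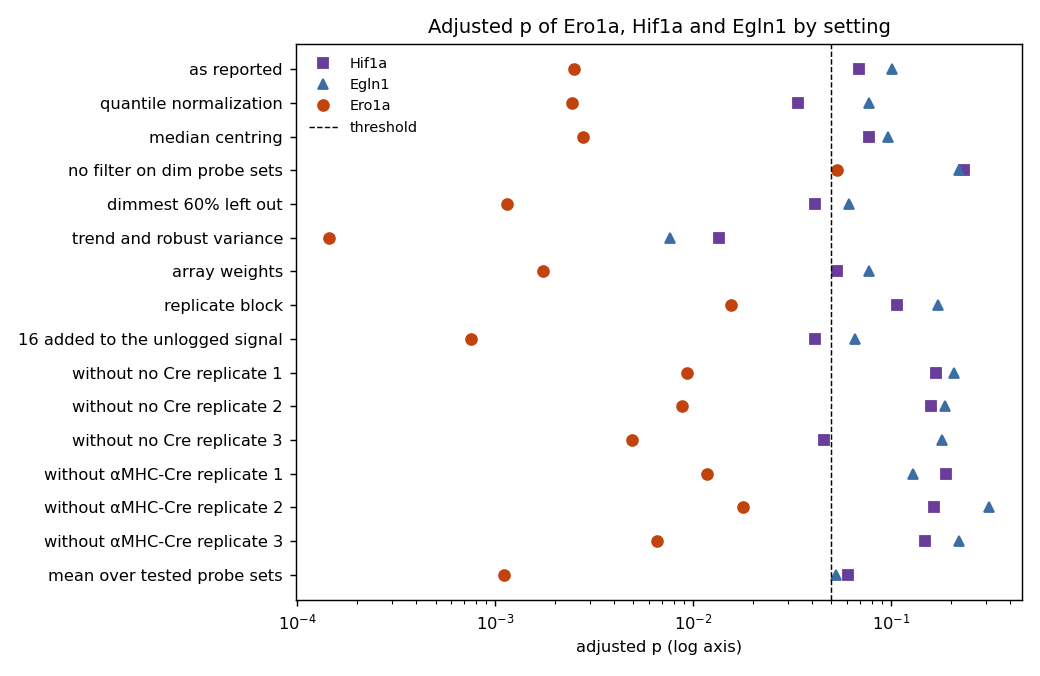
Adjusted p (log axis) of Hif1a, Egln1 and Ero1a under the reported setting and 15 alternatives, with the 0.05 threshold dashed. Ero1a passed in 14 of 15 alternatives, Hif1a in 5 and Egln1 in 1.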

How the data were processed

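RNA from 6 heart apices (3 αMHC-Cre, 3 no Cre) was measured on Affymetrix arrays. The authors deposited log2 signals per probe set, summarised with PLIER per the submitters' processing notes. Its settings and the handling of differences between arrays were not stated in the sources used, and base 2 is inferred from array maxima of 13.97 to 14.00. Low signals fall below 0 in this table, so differences of dim probe sets are unsteady. No values were normalized further.

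Control probe sets (64) and the dimmest 40% of the rest by mean over all arrays (18015, mean under 5.16) were left out. The test was lmFit and eBayes of limma 3.58.1 (R 4.3.3, two-sided), and the procedure was tested on simulated data. Symbols came from the platform annotation, only where a probe set had 1. Named genes were all members, and per list up to 4 called genes without overlap or, with none, the 2 largest differences. Other genes of the subunit and oxygen sensing lists are given to complete those lists, outside this rule, and names chosen after their values were seen are marked so. Members and lists were chosen with earlier results of these data known. Alternatives were quantile normalization, median centring, no or a 60% filter, trend and robust variance, array weights, a replicate block, 16 added to the unlogged signal, the mean over probe sets, and leaving out each heart. Each of 4 array quality measures had 1 value per heart and an exact permutation test. The titles name biological replicates.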

Additional observations from a re-analysis of the deposited data

How the results depend on the processing

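Of the settings that kept all hearts, member genes called numbered 2 with quantile normalization, with the dimmest 60% left out and with 16 added to the unlogged signal, 3 with trend and robust variance and 0 without a filter on dim probe sets (limma; 3 at an unadjusted p under 0.05, with 2 member probe sets still called), against 1 as reported. Member probe sets called numbered 5 with trend and robust variance, against 3. Pathway genes called numbered 10 with quantile normalization, 12 with the dimmest 60% left out, 12 with 16 added, 14 with trend and robust variance and 1 without a filter, against 6. Probe sets called in all numbered 275 without a filter, against 1412. For quantile normalization, the dimmest 60% left out, 16 added and trend and robust variance, that total is not given here. The higher member and pathway counts in those settings therefore cannot be told apart from a general rise in calls. Leaving out single hearts gave 600 to 1075 probe sets in all, 3 to 5 member probe sets, 1 to 2 member genes and 3 to 5 pathway genes, with the lowest total without aMHC_Cre 2 and the highest member counts without no_Cre 3. By construction more probe sets are tested without a filter, and they also enter the variance that limma shares across probe sets. The causes of the changes in these counts were not tested. With a replicate block there were 909 probe sets in all, 3 member probe sets, 1 member gene and 4 pathway genes. Deviations of same-numbered hearts correlated at -0.06, 0.21 and -0.19. These values show no steady pairing by number, and 3 hearts a group cannot exclude one. Signs turned for the dimmer Epas1 probe set (-0.12 to 0.24 over the settings that left out 1 heart), Egln3 (-0.29 to 0.017), its other probe set (-0.26 to 0.056), Ankrd37 (-0.0085 to 0.42) and Cited2 (-0.21 to 0.078, and 0.0045 with array weights). Ero1a kept its direction in all 15 alternatives. The number of arrays limits precision, and no detection calls were used.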

Other observations

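Some genes of the pathway and of the neighbouring lists spread far more within groups than between them, as seen after their values were known. Ddit4, an mTOR inhibitor gene induced by hypoxia and by glucocorticoids, read 11.12, 11.00 and 8.33 in hearts with Cre and 9.49, 9.63 and 10.98 in hearts without Cre. Pdk4, a kinase gene that rises in fasting, read 11.97, 11.77 and 10.62 with Cre and 11.65, 10.85 and 11.62 without. The clock gene Per1 read 8.65, 8.27 and 7.55 with Cre and 8.07, 7.65 and 8.60 without. In all 3 genes aMHC_Cre 3 was the lowest heart of its group, while the same heart was the highest of its group for Egln3, Ankrd37 and Bhlhe40.

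The 2 member probe sets too dim to be tested gave no separation of the groups. The one of Hif1a read 5.07, 4.68 and 4.81 with Cre and 3.97, 5.35 and 4.82 without Cre. The one of Pdk1 read 3.56, 4.26 and 3.85 with Cre and 3.999, 4.30 and 4.14 without.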
